A study of Callorhinchus milii with 12 samples.

Results

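The subject here is the CG-poor portion of the elephant shark (Callorhinchus milii) genome: 17220 windows of 2 kb that held only 5 to 12 called CG sites and were covered by at least 30 methylation calls. Sites without a call do not enter the count, so true CG content and uncalled sites cannot be told apart in it. A call is the state, methylated or not, of 1 cytosine of a CG dinucleotide on 1 sequencing read. The calls of the deep-sequenced female liver and the deep-sequenced male liver were added, the cytosines of both strands were counted as 1 CG site where called positions lay side by side, and each scaffold was divided into adjoining windows from its first base. The last window of each scaffold and 5 scaffolds with an overall level under 20% were left out. Windows were taken whatever their methylation level, so the level played no part in the choice. The 17220 windows were 3.96% of 434726 windows in all and 4.20% of the 410161 windows with at least 30 calls, and together they spanned 34440 kb.

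The series holds whole-genome bisulfite sequencing of adult elephant shark tissue, with no treatment given in the labels. Of its 12 libraries, 10 were sequenced at low coverage and are represented by mapping reports without positions, so the results below come from 1 adult female liver and 1 adult male liver. With 1 library per sex there is no biological replicate and no test, and a difference between the livers describes 2 animals in which sex and individual cannot be told apart. The female library held 30080951 calls on 12682448 reads, of which 69.0% were methylated, and the male library held 38128530 calls on 15880802 reads, of which 71.6% were methylated. The level of a window is the percentage of its calls that were methylated. Intervals are 95% Wilson intervals, which cover counting error only and are too narrow because calls on 1 read are not independent. Counting error given beside an SD across windows also takes calls as independent and is too small for the same reason.

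In vertebrate genomes the CG dinucleotide is the main target of DNA methylation. A methylated cytosine is prone to mutate to thymine, and for that reason CG dinucleotides are scarce in most vertebrate DNA and cluster in unmethylated CpG islands, many of them at promoters. When DNA is copied, the new strand starts without the mark, and in mammals DNMT1 adds it opposite the methylated cytosine of the old strand. In mammalian cells, sites that stand alone in CG-poor sequence are known to lose methylation first where maintenance is incomplete, as in the partially methylated domains of cultured and dividing cells.

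CG-poor windows were less methylated than the rest of the genome. Their median level was 65.1%, against 73.3% in the 392912 windows of over 12 CG sites, a difference of -8.17 percentage points. The difference had the same sign in each liver: the median was 63.2% against 71.9% in the female liver and 67.9% against 75% in the male liver, over windows with at least 15 calls in each liver. Most CG-poor windows were nonetheless methylated, with 33.4% of them at 60% to under 80% and 25.4% (4368 windows) at 80% or more. Among windows of over 12 sites these shares were 40.7% and 34.5%.

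The distribution was shifted and broadened. Intermediate levels were commoner in CG-poor windows, with 26.1% at 40% to under 60% and 12.0% at 20% to under 40%, against 18.0% and 4.55% of windows of over 12 sites. The 5th and 95th percentiles were 25.0% and 93.5% in CG-poor windows, against 35.1% and 93.4%. The upper quartile was 80.0%, against 83.9%, so of these values only the 95th percentile was alike. Percentiles include counting error, which was larger in CG-poor windows. The SD across windows was 21.4 points, against 18.7 points, and counting error alone gives 6.94 and 4.08 points. With that part taken out in quadrature, 20.2 points remained in CG-poor windows and 18.3 points in the others. Reads held 1.40 calls in CG-poor windows, against 2.38, so the part taken out may be too small to an unlike degree.

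**Figure D1:**
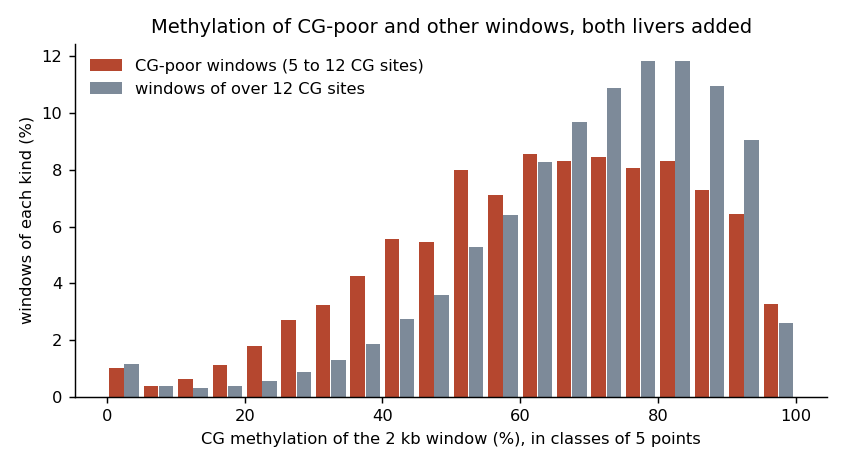
Distribution of CG methylation over 17220 CG-poor windows (red) and 392912 windows of over 12 CG sites (grey), in classes of 5 points of the percentage of methylated calls, with the calls of both livers added. The CG-poor windows spread over lower levels, with a median of 65.1% against 73.3%.

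The CG-poor windows made up 10.4% of all windows at 20% to under 40%, but only 3.12% of those at 80% or more. They were a small part of the unmethylated genome too, with 541 of the 9354 windows under 20% (5.78%), where windows of over 60 sites supplied 24.7%. Of the CG-poor windows 3.14% were under 20%, against 2.24% of windows of over 12 sites and 7.91% of windows of over 60 sites. The share of CG-poor windows under 20% was 6.06% among those of 5 to 8 sites, and in each liver alone, with at least 30 calls in that liver, the female gave 6.20% and the male 4.56%. In all, 85 of 17220 CG-poor windows had no methylated call and 106 had no unmethylated call. Among 392912 windows of over 12 sites these counts were 505 and 231, but there the median was 132 calls, against 40. With 30 to 60 calls they were 76 and 103 of 16130 CG-poor windows, against 105 and 161 of 45557 windows of over 12 sites.

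Above the limit of 12 sites the median climbed with each class of CG content. Windows of 13 to 20 sites had a median of 68.1%, those of 21 to 30 sites 71.9%, those of 31 to 45 sites 75.1%, those of 46 to 60 sites 76.9% and those of over 60 sites 78%. The mean did not follow in the last class, with 72.9% at 46 to 60 sites and 70.7% above 60, nor did the share of all calls, with 73.4% and 69.4%. Just inside the limit, the 6387 windows of 12 sites had a median of 66.1%, and the 7950 windows of 13 sites just outside it had 65.8%. At the lower limit, the 16 windows of 4 sites with at least 30 calls had 67.7%. Against windows of 13 to 20 sites the difference was -3.02 points rather than -8.17, so the size of the contrast depends on which windows CG-poor ones are set against.

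Within the CG-poor windows the median climbed by a few points over the larger classes of site number. The scarcest classes had medians of 67.1% at 5 sites (38 windows), 58% at 6 (128) and 65.1% at 7 (360), with no order among them. The larger classes had 62.2% at 8 sites (811 windows), 62.5% at 9 (1729), 64.7% at 10 (3111), 65.2% at 11 (4656) and 66.1% at 12 (6387). The spread narrowed as well. The SD across windows was 29.2 points at 5 sites, 24.4 at 7, 22.9 at 9, 21.2 at 11 and 20.2 at 12. Counting error stayed between 6.68 and 7.26 points. Windows with a stretch of 1 kb or more without a called site became rarer too. They were 73.7% at 5 sites, 32.5% at 7, 11.9% at 9 and 4.13% at 12. Whether the narrowing goes with site number or with these stretches was not tested. Windows of over 60 sites had an SD of 24.0 points.

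**Figure D2:**
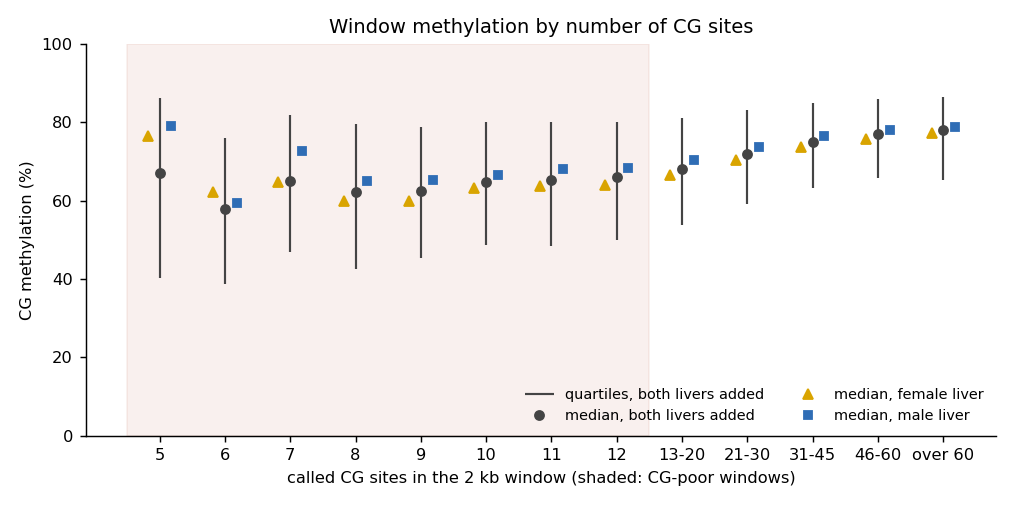
CG methylation of 2 kb windows by their number of called CG sites, with windows of at least 30 calls. Circles and lines give the median and quartiles with both livers added, and triangles (female liver) and squares (male liver) give medians over windows with at least 15 calls in each liver, so that in the smallest class, with 38 windows, both can lie above the circle. The median climbs from 66.1% at 12 sites to 78% above 60 sites, and the shaded CG-poor classes are the widest.

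Depth went along with CG content and touches the comparison. CG-poor windows had a median of 40 calls and 29 reads, against 132 calls and 66 reads, and 3.78 calls per site, against 4.56. Among windows with 30 to 60 calls the difference in median level was -2.48 points, with 64.9% in CG-poor windows and 67.3% in windows of over 12 sites. Such shallow windows of over 12 sites had a median of only 16 sites, so matching the calls also brings CG content closer, and depth and CG content cannot be told apart there.

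Depth per site was matched as well. At 2.5 to under 3.5 calls per site the medians were 64.9% in CG-poor windows and 69.4% in windows of over 12 sites, a smaller gap than over all windows. At 3.5 to under 5 calls per site the medians were 65.0% in CG-poor windows and 72.0% in windows of over 12 sites, and at 5 to under 7 they were 65.5% and 75.9%. At 7 or more they were 65.2% and 79.1%. In order of depth, the windows of over 12 sites had a median of 21, 27, 37 and 47 sites, against 11, 11, 11 and 10 in CG-poor windows. Depth per site and CG content thus cannot be told apart here either. The level of CG-poor windows moved little with depth, with 64.5% at 30 to 39 calls, 65.9% at 40 to 59 and 67.2% at 60 to 99. Windows just inside the minimum (30 to 34 calls, 4501 windows) had a median of 64.5%, and windows of 5 to 12 sites just outside it (25 to 29 calls, 4618 windows) had 64.0%.

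The 61 CG-poor windows with at least 100 calls stood apart: their median was 61.4%, 19.7% of them were under 20% and 52.5% had a stretch of 1 kb or more without a called site. Against other windows with at least 100 calls the difference was -13.8 points. The label CG-poor was therefore checked against the layout of the sites. The longest stretch without a called site had a median of 584 bp in CG-poor windows, against 326 bp, and reached 1 kb in 8.08% of them (1391 windows), against 0.971%. A stretch without called sites may be true CG-free sequence, an assembly gap or sequence to which reads did not map, and in the call files these cannot be told apart. Windows with such a stretch had a median of 67.6% and an SD of 28.4 points, with 12.0% of them under 20% and 32.1% at 80% or more. Without them 2.36% of CG-poor windows were under 20%, and the difference from the other windows was -8.43 points.

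The most extreme windows show this layout. All 3 of the lowest windows with at least 100 calls bordered a window without a call. NW_006890115.1:4156001-4158000 had 0 methylated of 131 calls (interval 0 to 2.85%), with 0 of 55 in the female liver and 0 of 76 in the male liver. Its 12 sites lay between positions 4157904 and 4157991, after 1903 bp without a called site, and its calls came from 7 female and 12 male reads. All its called sites thus lay in 1 short, CG-dense and unmethylated stretch, and the rest of the window had no call. The window to its right had 55 sites at 26.7%, and the 50 kb around it were at 84.0%.

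The other 2 were of the same kind. NW_006890063.1:11694001-11696000 had 1 methylated of 121 calls and a stretch of 1678 bp without a called site, and NW_006890209.1:98001-100000 had 1 of 114 and a stretch of 1894 bp. The 3 highest windows also held long stretches without sites: NW_006890280.1:438001-440000 with 100 methylated of 103 calls and 1348 bp, NW_006890071.1:5362001-5364000 with 108 of 112 and 1426 bp, and NW_006890235.1:262001-264000 with 107 of 112 and 1431 bp. In all 3 the male liver was at 97.0% or above and the female liver between 92.0% and 93.3%.

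At the level of single sites, methylation in CG-poor windows followed the distance to the nearest other site. The 184497 sites of these windows were spaced by a median of 93 bp, against 27 bp in windows of over 12 sites, and 28.4% of spacings were 200 bp or more, against 5.33%. Distances run between the first called positions of sites, so they are approximate where a site was not called on both strands. Sites with a neighbour at 2 bp were methylated in 75.5% of calls, and those with a nearest neighbour at 3 to 10 bp in 68.7%. The share was 62.5% at 26 to 50 bp, 59.4% at over 100 to 200 bp and 55.7% at over 400 bp. The order was the same in each liver: 74.2% at 2 bp and 53.3% at over 400 bp in the female liver, and 76.5% and 58.1% in the male liver. The most isolated sites of the CG-poor windows were thus the least methylated, and still methylated in most calls.

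A fall with distance was also seen in the pooled windows of over 12 sites, at a higher level in all classes but the closest. In windows of over 12 sites the level was 73.5% at 3 to 10 bp, 67.6% at 26 to 50 bp, 62.9% at over 100 to 200 bp and 57.8% at over 400 bp. At 2 bp it was 74.2%, lower than the 75.5% of CG-poor windows. Windows of over 60 sites among them did not follow this order at short distance, with 66.1% at 2 bp, 68.8% at 3 to 10 bp and 71.8% at 11 to 25 bp. Over all spacings 62.9% of calls were methylated in CG-poor windows, against 71% in windows of over 12 sites and 67.4% once these were weighted to the spacings of the CG-poor windows. The difference in pooled calls was -8.05 points as measured and -4.45 points at matched spacing. Against windows of 13 to 20 sites it was -3.57 points as measured and -2.36 at matched spacing, with CG-poor windows lower in all 8 spacing classes.

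**Figure D3:**
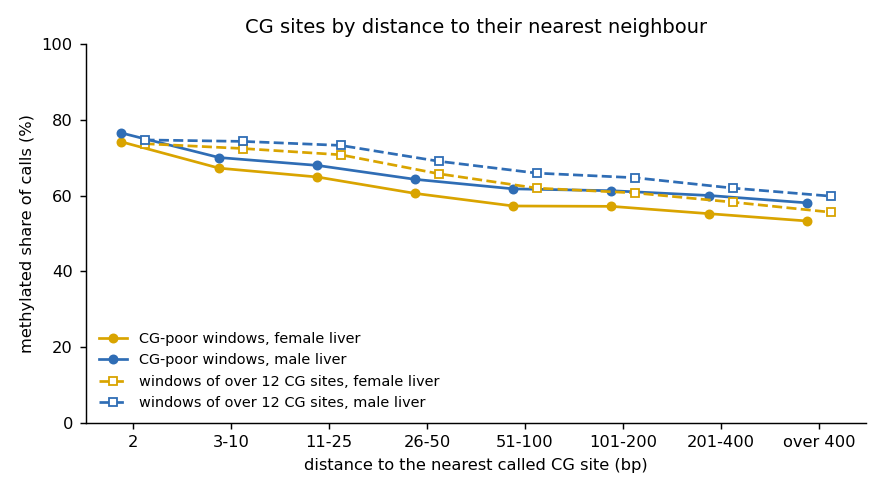
Percentage of methylated calls at CG sites by the distance in bp to the nearest called CG site, in CG-poor windows (filled, solid lines) and windows of over 12 CG sites (open, dashed lines), for the female liver (gold) and the male liver (blue). In CG-poor windows the level drops with distance in both livers, to 53.3% in the female liver and 58.1% in the male liver at over 400 bp.

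Of the sites in CG-poor windows, 63745 (34.6%) had at least 5 calls. Their median level was 66.7% and 42.3% of them were at 80% or more, against 55.4% of such sites in windows of over 12 sites, and 11% were under 20%, against 8.63%. Within 1 window, sites differed from each other by more than counting error. Over the 12893 CG-poor windows with at least 3 such sites, the SD among sites of 1 window was 23.2 points (root mean square), where counting gives 16.0 points. This was not particular to CG-poor windows. The same values were 23.3 and 15.9 points in windows of 13 to 20 sites, and 22.7 and 14.7 in windows of over 12 sites. In 13.9% of these CG-poor windows 1 site was under 20% and another at 80% or more. This share was 34.6% in windows of over 12 sites, but there a median of 13 sites entered, against 4, so the shares are not comparable.

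A worked example shows a CG-poor window of the longest scaffold site by site. NW_006890054.1:910001-912000 held 12 sites with 59 methylated calls, or 58.4% (interval 48.7% to 67.5%), with 28 of 44 in the female liver and 31 of 57 in the male liver. Its first 4 sites, at positions 910497 to 910947, were covered in the male liver only and methylated in all their calls. The remaining 8 sites lay within 60 bp from position 911034 on. The site at 911034 had 0 methylated of 5 female calls and 3 of 7 male calls, and the site at 911076 had 5 of 6 female calls and 2 of 5 male calls. An intermediate window level here was made of fully methylated and mixed sites, and it rested on 6 female and 13 male reads.

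Calls on the same read tell whether neighbouring sites of 1 DNA molecule were alike. The CG-poor windows were covered by 520835 reads with 1.40 calls each, against 2.38 calls per read in windows of over 12 sites. Of 209553 pairs of neighbouring calls on 1 read, 22.5% (22.4% to 22.7%) held 1 methylated and 1 unmethylated call, against 18.7%. The share was 23.0% in the female liver and 22.1% in the male liver. In CG-poor windows unlike pairs became commoner with distance, with 12.5% at 2 bp, 16.6% at 6 to 10 bp, 25.4% at 21 to 40 bp and 32.3% at 61 to 100 bp. At the same distances windows of over 12 sites had 10.3%, 15%, 22.9% and 30.4%.

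How these shares compare depended on the level of the windows. Among windows at 60% to under 80% there was almost no difference, with 18.2% of pairs unlike in CG-poor windows and 18.3% in windows of over 12 sites at 2 to 10 bp, and 27.5% and 27.6% at 21 to 40 bp. Among windows at 20% to under 40%, CG-poor windows had more unlike pairs, with 19.2% against 11.4% at 2 to 10 bp. At this distance they also had more under 20%, with 4.68% against 3.36%, and at 40% to under 60%, with 22.8% against 20.0%. Among windows at 80% or more they had fewer, with 9.55% against 11.3%. At 20% to under 40%, CG-poor windows thus more often mixed both states on 1 molecule than the pooled windows of over 12 sites. Of the 637492 pairs of the latter at 2 to 10 bp, windows of over 60 sites supplied 317777, with only 6.94% unlike. How much of the difference goes with these CG-dense windows was not tested.

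**Figure D4:**
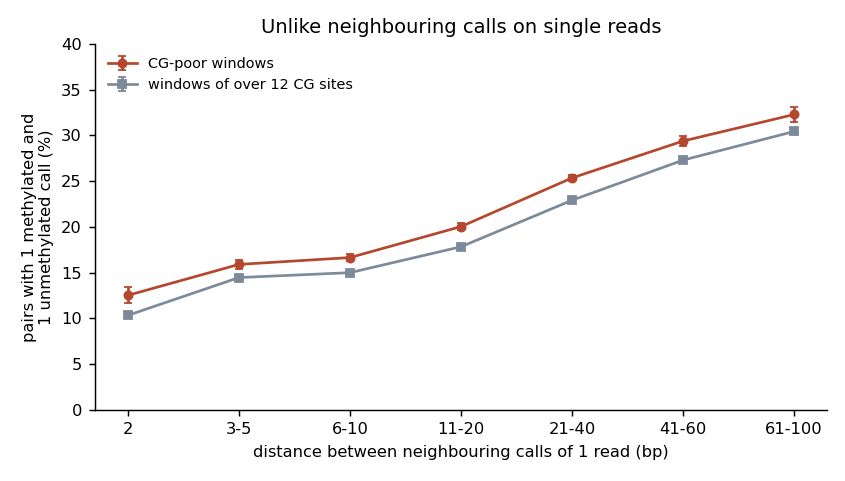
Percentage of neighbouring call pairs on 1 read, within 1 window, that held 1 methylated and 1 unmethylated call, by the distance between the calls in bp. CG-poor windows are red and windows of over 12 CG sites grey, with both livers added, and bars are 95% Wilson intervals. Both lines climb with distance, in CG-poor windows from 12.5% at 2 bp to 32.3% at 61 to 100 bp.

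Most CG-poor windows stood alone, but their neighbours had few sites more often than the neighbours of other windows. They fell into 15735 runs of adjoining CG-poor windows, of which 14400 were a single window, 1202 were 2 windows and 133 were 3 or more. A window of 5 to 12 sites with under 30 calls ends a run, and there were 12580 of those. Of the windows adjoining a CG-poor window, whatever their calls, 15.9% had 5 to 12 sites, against 6.08% of those adjoining windows of over 12 sites. Windows 2 kb away had a median of 20 sites, close to the 21 sites found 20 kb away, and 8.62% of them were CG-poor themselves, against 7.26% at 20 kb and 3.96% of all windows. The lower level was local. It was 65.1% in the CG-poor windows, 69.2% and 69.3% in the windows 2 kb to either side, and 69.2% and 69.5% at 20 kb. Around windows of 21 to 30 sites, levels were 71.9% to 72.1% both at 2 kb and at 20 kb. CG-poor windows therefore lay in regions of slightly lower methylation, and their median was lower again than that of those regions. This drop was not seen at all levels of the surroundings, as given below.

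**Figure D5:**
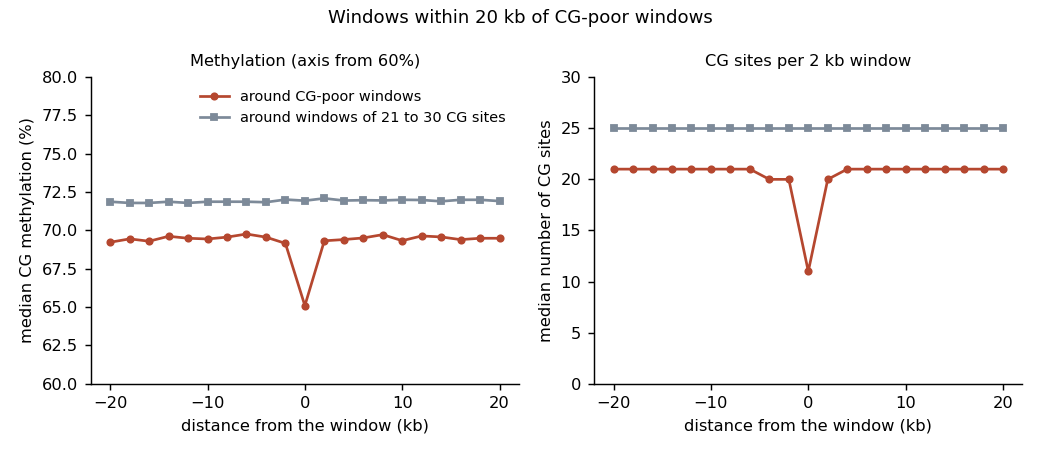
Median CG methylation (left, axis from 60%) and median number of CG sites (right) of 2 kb windows by their distance in kb from CG-poor windows (red) and from windows of 21 to 30 CG sites (grey), with both livers added. At the CG-poor windows the level drops to 65.1% and the number of sites to 11, and both are back near their surroundings at 2 kb.

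Set against its own neighbours, a CG-poor window was lower by 3.74 points in the median (difference -3.74, 16562 windows with a neighbour of at least 30 calls that was not itself CG-poor), and 60.8% of windows were below their neighbours. For windows of over 12 sites the same difference was 0.600 points and 47.5% were below. In each liver alone, with at least 30 calls in that liver, the difference of CG-poor windows was -2.84 points in the female and -2.41 in the male. A drop of 20 points or more was seen at 14.3% of CG-poor windows (2376), against 5.90%, and an excess of 20 points or more at 5.14% (851), against 4.96%. The excess on the low side was not matched by one on the high side. These shares are not at like depth: the median was 40 calls in CG-poor windows, against 132. Counting error was 6.94 points, against 4.08. How much of the excess on the low side goes with depth was not tested.

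The 541 CG-poor windows under 20% sat in lowered surroundings. Their neighbours had a median of 40.1%, and 30.9% of these windows had a stretch of 1 kb or more without a called site. The lowest relative to their neighbours was NW_006890160.1:154001-156000, with 0 methylated of 97 calls between neighbours at 83.8% and 96.2%, and NW_006890187.1:754001-756000 followed with 1 of 79 between 68.3% and 98.5%. Their calls came from 18 reads in the first (10 female, 8 male) and 20 in the second (5 female, 15 male). The highest relative to their neighbours was NW_006890058.1:7918001-7920000, with 51 methylated of 61 calls (83.6%) next to a window of 133 sites at 4.64% and one of 48 sites at 47.3%. At NW_006890087.1:3788001-3790000, 49 of 63 calls (77.8%) were methylated between windows at 2.5% and 44.7%. These are methylated CG-poor windows beside low windows of more sites.

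The level of the 50 kb around a window, with the window itself left out, went with the level of the window in both kinds alike. Pearson's r was 0.672 over 17194 CG-poor windows and 0.667 over 392351 windows of over 12 sites, given as a description, since neighbouring windows share their libraries and their surroundings. The 50 kb around CG-poor windows had a median of 68.1%, against 72.2%, and 13.7% of CG-poor windows lay in surroundings under 50%, against 8.54%. Set against its own 50 kb, a CG-poor window differed by -5.53 points in the median in surroundings under 50%. At 60% to under 70% the median difference was -2.65 points. No drop was seen at 70% to under 80% (0.0248 points, 4597 windows) or at 80% to under 90% (0.536 points, 2999 windows). At 90% or more, with 153 windows, it was -0.45 points.

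Against the pooled windows of over 12 sites, CG-poor windows were lower at each level of the surroundings, and most so in low surroundings. In surroundings under 50% their median was 37.5%, against 44.4% in windows of over 12 sites, and at 50% to under 60% it was 50.0%, against 57.1%. At 70% to under 80% it was 75%, against 77.9% (a difference of -2.91 points), at 80% to under 90% it was 84.6%, against 86.7%, and at 90% or more 91.7%, against 92.0%. In highly methylated regions CG-poor windows were thus close to windows of over 12 sites, and in lowly methylated regions several points lower. Windows of 13 to 20 sites were nearer in surroundings under 90%, with 41.3% under 50% and 53.5% at 50% to under 60%. They had 76.1% at 70% to under 80% and 85.4% at 80% to under 90%. At 90% or more they had 91.1%, below the 91.7% of CG-poor windows. Windows of over 60 sites had a median of 7.43% in surroundings under 50%, far below CG-poor windows.

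CG-poor windows were less methylated in the female liver than in the male liver. Over the 12330 windows with at least 15 calls in each liver, the mean level was 61.2% in the female liver and 64.9% in the male liver, a difference of -3.74 points, and 57.8% of windows were lower in the female. In windows of over 12 sites the means were 68.4% and 71.3%, a difference of -2.86 points, and in windows of 13 to 20 sites the difference was -3.72 points. The 2 lanes of each library, a technical repeat on 1 flow cell, gave 60.8% and 61% of calls methylated in CG-poor windows of the female liver and 64.8% and 64.5% in the male liver. The lanes show sequencing error only, and the spread between animals of 1 sex was not measured at this depth. Over the 560 windows with at least 30 calls in each liver the mean difference was -2.39 points, and over the 485 windows with at least 15 calls of each liver in the second lane it was -1.76 points, against -3.62 points over 1293 windows in the first.

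The difference was smallest at both ends of the scale. It was -0.845 points in CG-poor windows under 20%, -5.25 at 20% to under 40%, -4.70 at 40% to under 60%, -4.26 at 60% to under 80% and -1.72 at 80% or more. In windows of over 12 sites the differences were -0.502, -3.63, -4.26, -3.30 and -1.65 points in the same order. Near the ends of the scale little difference is possible, because windows were grouped by the added level of both livers. Across windows the levels of the livers went together, with Pearson's r of 0.754 over CG-poor windows, as a description. The SD of the difference was 16.0 points, where counting alone gives 13.4. With that part taken out in quadrature, 8.60 points remained. Counting error takes calls as independent here too, so the part taken out is too small.

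Large differences between the livers were frequent in CG-poor windows, at shares near those of all windows of like depth. The female liver was lower by 20 points or more in 1851 CG-poor windows (15%), where 6.44% of all windows were, and higher by as much in 772 (6.26%), where 2.14% of all windows were. Among windows with 30 to 60 calls the counts were 1740 (15.5%) and 732 (6.51%) of CG-poor windows, near the 14.5% and 6.01% of all windows at that depth. Both livers were under 20% in 245 of 12330 CG-poor windows, against 7845 of 399827 windows in all. With 30 to 60 calls these counts were 195 of 11247 CG-poor windows and 375 of 40300 windows of over 12 sites. In 1 CG-poor window 1 liver was under 20% and the other at 80% or more, against 8 of all windows.

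The largest difference among windows with at least 30 calls in each liver was at NW_006890056.1:6970001-6972000, where 1 of 34 female calls (2.94%) and 23 of 32 male calls (71.9%) were methylated, on 23 reads each. The site at position 6971085 had 1 methylated of 10 female calls and 6 of 6 male calls, the site at 6971087 had 0 of 10 and 4 of 6, and the site at 6971571 had 0 of 4 and 4 of 4. Methylation in the male liver was thus spread over the window, and the neighbouring windows, with both livers added, were at 11.1% and 23.5%. NW_006890171.1:284001-286000 followed with 9 of 33 female calls and 25 of 34 male calls, and NW_006890086.1:2122001-2124000 with 24 of 60 and 54 of 67. The former rested on 20 female and 26 male reads, and the latter on only 16 and 19. NW_006890086.1:2122001-2124000 also had a stretch of 1258 bp without a called site and bordered a window without a call.

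In the other direction, NW_006890079.1:1118001-1120000 had 31 of 44 female calls (70.5%) and 10 of 40 male calls (25.0%) methylated. NW_006890080.1:3180001-3182000 had 46 of 50 female calls and 25 of 51 male calls, and NW_006890091.1:698001-700000 had 73 of 84 and 39 of 72. In that order, the windows higher in the female rested on 28, 22 and 27 female reads and 26, 25 and 26 male reads. These 6 windows are the extremes of 560, and sex and individual cannot be told apart in them.

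The longest run was 6 adjoining CG-poor windows at NW_006890056.1:8184001-8196000, with 62 sites in 12 kb and 129 of 214 calls methylated, or 60.3% (interval 53.6% to 66.6%). Its windows were at 75%, 60%, 28.1%, 68%, 46.9% and 78.8% in order of position, and the whole run was at 58.2% in the female liver and 61.8% in the male liver. Levels thus varied between adjoining windows of similar CG content, each resting on 32 to 50 calls, with wide counting intervals such as 57.9% to 86.7% in the first window and 43.6% to 74.4% in the second. Runs of 5 windows were at NW_006890104.1:3138001-3148000, with 155 of 194 calls methylated (79.9%) and windows between 60% and 93.9%, and at NW_006890076.1:8332001-8342000, with 126 of 185 (68.1%) and windows between 59% and 76.7%. These 3 runs were close to the 50 kb around their first windows, at 61.5%, 79.9% and 68.6%. Those 50 kb hold the other windows of the same run, so the values are not independent.

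CG-poor windows were scattered over the assembly, with at least 1 on 301 of 325 scaffolds. Among the 186 scaffolds with at least 500 windows they made up between 0 and 11.1% of windows, with a median of 3.27%. The highest share was on NW_006890155.1, where 161 of 1450 windows were CG-poor, with a median of 44.7%, against 58.1% in its windows of over 12 sites. At the other end, NW_006890227.1 had none in 553 windows, as had 1 other scaffold of that size. The longest scaffold, NW_006890054.1, had 391 in 9253 windows, with a median of 66.0%, against 71.4%. They were not gathered at scaffold ends, with 1.05% of them within 20 kb of an end, against 1.42% of all windows that could be used.

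The lower level of CG-poor windows recurred from scaffold to scaffold. Of 134 scaffolds with at least 20 CG-poor windows, 115 had a lower median in CG-poor windows than in windows of over 12 sites, and 17 had a higher one. The differences ran from -30.6 to 6.79 points with a median of -5.56. On 122 of the 134 scaffolds the pooled level of CG-poor windows was lower in the female liver than in the male liver. The matching count for windows of over 12 sites is not given here. Pooled over all scaffolds, those windows were also lower in the female liver, with 69.5% of calls methylated, against 72.1%. Scaffolds share the same 2 libraries and are not replicates. The median of CG-poor windows itself ranged from 34.4% to 86.2% between these scaffolds.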

How the data were processed

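Whole-genome bisulfite libraries were made by the authors by post-bisulfite adapter tagging. Reads were trimmed with Trim Galore (0.4.0) and a further 10 bp at the 5′ end, aligned with Bismark (0.14.3, PBAT option) to assembly 6.1.3, of which scaffolds above 277 kb were used, and deduplicated. The deposited files list each call with its read, position and state; no normalization was applied. Mapping reports of 10 low-coverage libraries were not used. No sequence or annotation of this assembly was used here, so genes and sequences are not given.

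Calls were read and counted with Python 3.11.15, NumPy 2.4.6, Numba 0.67.0 and pandas 2.3.3, after the steps had been tested on simulated data. Sites needed at least 5 calls for a level of their own, and windows at least 15 calls in each liver for the sexes. Neighbours and the 50 kb around exclude the window itself. With 1 library per sex no test was run. The windows named were the longest runs, the extremes with at least 100 calls, those with the largest difference between the livers (at least 30 calls in each) or from both neighbours (at least 60 calls), the scaffolds with the highest and lowest share and the longest one, and 1 worked example of at most 15 calls per site. The choice of CG-poor windows and of these rules was made with earlier results of these data known.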

Additional observations from a re-analysis of the deposited data

How the results depend on the processing

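Of 82 alternatives, 53 left a value within its spread between the livers (for counts, within 1.5 times; for the difference between the sexes, within its counting interval) and 29 moved it. The spread between the livers is the SD of the values of each liver alone. Those values also count among the alternatives, so this tally is not independent of its measure. A sign could turn only in the differences, with 16 alternatives for other windows, 13 for the neighbours and 7 for the sexes, and it turned in none of them. The remaining alternatives concern counts, levels and shares, which cannot change sign. A minimum of 50 calls left 3516 CG-poor windows and one of 100 calls 61. The median level was 61.4% at 100 calls and 68.8% in the male liver alone. The difference from windows of over 12 sites ran between -13.8 and -2.48 points over 16 alternatives, all negative: -13.8 at 100 calls, -10.4 for 5 to 8 sites, -6.73 with the first listed call of each read, -6.58 in the male liver alone, -3.02 against windows of 13 to 20 sites, -2.91 in surroundings at 70% to under 80% (chosen after seeing the data) and -2.48 at 30 to 60 calls. The difference from the neighbours was -4.63 at 100 calls, -4.30 for 5 to 8 sites, -4.11 at 20 calls, -2.95 at 50 calls, -2.84 in the female liver alone, -2.80 with 5 windows on each side, -2.75 with the first listed call and -2.41 in the male liver alone. The female minus male difference was -2.39 points at 30 calls in each liver and -1.76 in the second lane. Unlike pairs were 17.9% at up to 20 bp and 27.4% beyond. Several alternatives use fewer or other windows, while the first listed call and the spacing splits of the pairs keep the same windows and use fewer calls. The cause of these moves was not tested. No paired analysis was possible because only 1 library per sex was deep-sequenced. At a median of 40 calls a window, counting error (6.94 points) limits what a single CG-poor window shows.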
